A study of Mus musculus with 4 samples.

Results

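Complement genes of mouse skin were examined in dermal cells on 4 arrays. The 9 genes listed were *C1qa*, *C1qb* and *C1qc*, *C3*, *Cfb* and *Cfp*, the receptor genes *C3ar1* and *C5ar1*, and *Serping1*. All probe sets that the platform's annotation gives to these genes alone were taken, which made 14 probe sets of 8 genes, out of 45101 probe sets and 18193 genes in all. *C3* had 0 such probe sets and was not analysed here. The arrays held dermal RNA of C57BL/6 female mice of 10 weeks. They were made from abdominal skin of pregnant mice injected with the Src inhibitor PP2, abdominal skin of pregnant mice injected with the vehicle dimethyl sulphoxide (DMSO), dorsal skin of pregnant mice injected with DMSO, and abdominal skin of virgin mice injected with DMSO. They are called the PP2, abdominal, dorsal and virgin arrays. All mice received intradermal injections 2 times a day for 4 days, the pregnant mice from 12 dpc, and were taken at 15 dpc by the sample titles, while the sample descriptions give 16 dpc. Each condition had 1 array, so no difference has an error or a test. The number of mice behind an array is not stated in the sources used here. The question was how these genes differed with pregnancy, with PP2 and with the site of the skin.

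Complement is a cascade of plasma and tissue proteins that tag particles and cells for removal. The classical pathway starts when C1q, a bundle of trimers of an A, a B and a C chain, binds antibody or other targets and activates the proteases C1r and C1s. The alternative pathway is an amplifying loop in which factor B and C3 form a convertase that properdin stabilises. The cleaved fragments C3a and C5a act on their own receptors on leukocytes. The C1 inhibitor, encoded by *Serping1*, inactivates C1r and C1s. In most tissues macrophages and related myeloid cells are the main source of C1q, whereas fibroblasts and other stromal cells can make factor B and the C1 inhibitor.

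The values were MAS5 signals, intensities on a linear scale in arbitrary units, with a call of present, marginal or absent for each probe set. Several short probes against the same stretch of a transcript make up a probe set. From 58.4% to 59.7% of probe sets were called present per array, and the trimmed mean signal was 500.0 on each. The dimmest signal called present was 3.96, 6.57, 9.36 and 10.7 on the PP2, abdominal, dorsal and virgin arrays. For *Gapdh*, the signal of the 3′ control over that of the 5′ control, a ratio that is higher in shortened RNA, was 5.84, 1.41, 2.97 and 2.51 in the same order, and its part in the results was not tested. Fibroblast markers were called present on all arrays for 8 of 8 genes, and so were those of keratinocytes for 5 of 5. Of 5 dendritic and Langerhans cell markers, 0 were called present on any array. Signals of different probe sets are not compared, since probes differ in how well they bind. In bulk RNA, fewer cells of a type and less RNA per cell cannot be told apart.

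Of the 14 member probe sets, 4 were called present on all 4 arrays, 6 on some and 4 on none. The probe set whose log2 signals had the highest mean stands for a gene, and its other probe sets are given beside it. A gene was counted as higher or lower at a ratio above 2 with a present call on the brighter array. If the dimmer of 2 arrays lacked a present call, the fold is a lower bound, set by the dimmer signal or by the dimmest present signal of that array if this was higher, and is given with the words at least. No fold is given where neither array had a present call.

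**Figure D1:**
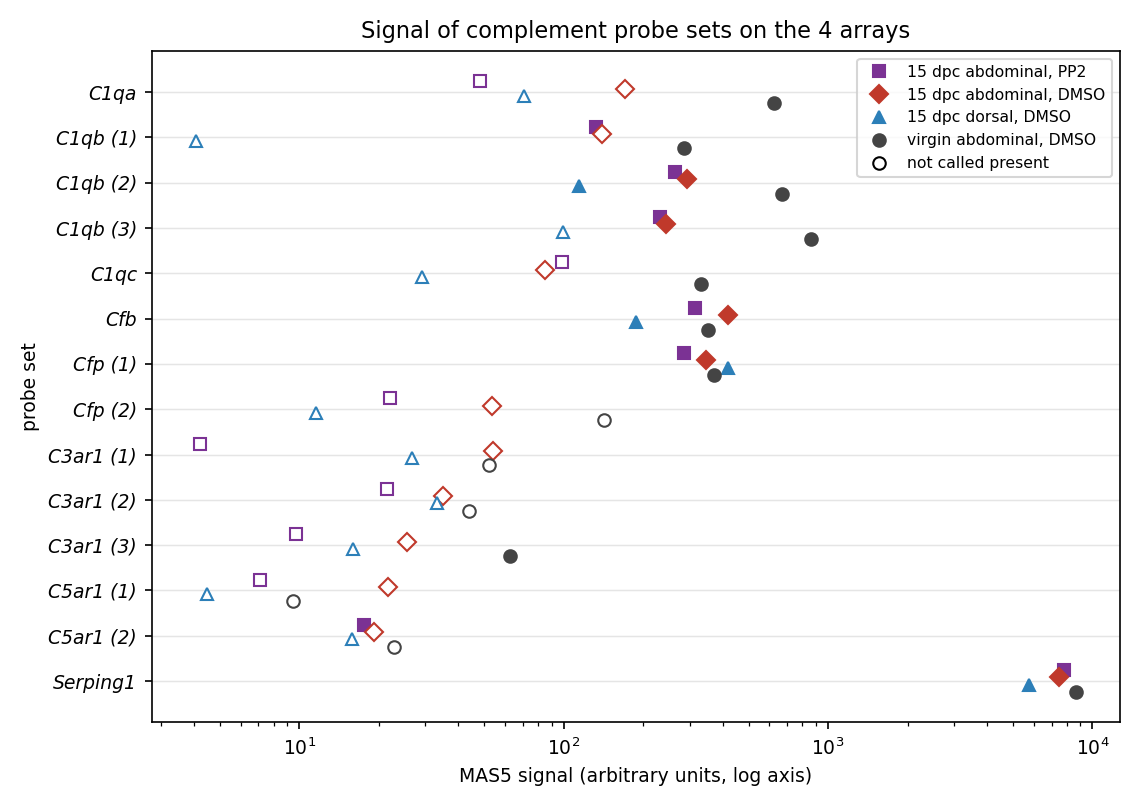
Signal of the 14 member probe sets (rows, numbered within a gene) on the 4 arrays, in arbitrary units on a log axis; open symbols mark arrays without a present call, and for *C1qb* row 2 is the representative, row 3 the second and row 1 the third probe set. All 5 C1q probe sets have their highest signal on the virgin array, whereas the 4 signals of *Serping1* lie between 5730 and 7816 on the arrays of pregnant mice and at 8642 on the virgin array.

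The C1q chains were lower in pregnancy. All 3 genes were lower on the abdominal array of 15 dpc mice than on the virgin array, by at least 3.66-fold for *C1qa*, 2.29-fold for *C1qb* and at least 3.86-fold for *C1qc*. The 3 genes lie side by side on chromosome 4 in the order *C1qb*, *C1qc*, *C1qa*, with 0 other protein-coding genes between them. The promoters of *C1qb* and *C1qc* are shown because the C1q chains were the members lower on the abdominal than on the virgin array. *C1qa* is named only. Each is the stretch of 250 bases before the gene's start, from RefSeq on GRCm38.p6, both on the minus strand and printed 5′ to 3′ as the gene reads. Capitals mark matches, on either strand, to GAGGAA and GGAAGT, which are forms of the binding motif of the myeloid transcription factor PU.1 and its relatives.
C1qb, chr4:136886201-136886450: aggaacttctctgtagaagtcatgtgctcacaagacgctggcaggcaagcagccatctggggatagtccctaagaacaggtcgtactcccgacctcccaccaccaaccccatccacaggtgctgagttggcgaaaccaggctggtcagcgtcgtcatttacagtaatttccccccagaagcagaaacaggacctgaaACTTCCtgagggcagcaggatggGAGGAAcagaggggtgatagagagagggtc
C1qc, chr4:136892915-136893164: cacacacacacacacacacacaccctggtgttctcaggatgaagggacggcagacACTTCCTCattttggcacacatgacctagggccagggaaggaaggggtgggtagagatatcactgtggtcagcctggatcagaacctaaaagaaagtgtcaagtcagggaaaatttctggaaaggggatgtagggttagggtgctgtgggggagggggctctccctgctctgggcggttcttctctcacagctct
In *C1qb* a match to GAGGAA began 30 bases before the start and a match to GGAAGT, on the opposite strand, 53 bases before it. In *C1qc* both matches were on the opposite strand, 193 and 195 bases before the start, and overlapped. Of 27025 windows of this length in the table, 23.1% held GAGGAA, 5401 held GGAAGT and 6.31% held both. Promoters of 5 of the 8 measured members were in the table: those of *Cfp* and *C3ar1* held neither sequence, and that of *C5ar1* held GGAAGT at 2 places. A match is a description of the letters and not a site of binding.

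The signals of *C1qa*, which encodes the A chain, were 48.1, 171, 70.8 and 626 on the PP2, abdominal, dorsal and virgin arrays. It was called present on the virgin array alone and marginal on the abdominal array. *C1qb*, which encodes the B chain, gave 263, 293, 114 and 672 in that order by its representative probe set, with a present call on each. The virgin array stood highest and the dorsal array lowest. By the second probe set the signals were 231, 243, 99.1 and 858, in the same order. These probe sets carry the x suffix, which the maker gives to sets with probes that can match other transcripts. The third probe set has no such suffix and gave 133, 140, 4.05 and 285, with present calls on the PP2 and virgin arrays. *C1qc*, which encodes the C chain, gave 98.4, 85.3, 29.0 and 329 in the same order and was called present on the virgin array alone. Present calls among the 5 C1q probe sets thus numbered 3 for PP2, 2 for abdominal, 1 for dorsal and 5 for virgin skin. The virgin array was highest for all 5. Signals without a present call have no order among themselves.

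With pregnancy, 3 members were lower on the abdominal array than on the virgin array and 0 were higher, among 6 called present on at least 1 of the pair. Among all 12744 genes so measured, 3.55% were lower and 3.41% higher. The log2 ratio was -1.20 for *C1qb*. For *C1qa* and *C1qc*, which had no present call on the abdominal array, it was bounded at -1.87 and -1.95 or below. The median of the 3 was thus -1.87 or below, against a median of 0.02 over all genes. All 5 C1q probe sets were lower by this rule, against 5.96% of all probe sets. The other probe sets of *C1qb* were lower by 3.54-fold and, without the x suffix, by at least 2.04-fold. Genes of like brightness were counted too, a choice made with the values known. Of 2607 genes called present on the virgin array at signals between 329 and 672, the range of the C1q chains there, 2.8% were lower by this rule. Of the 2607, 0.614%, or 16 genes, were over 2-fold higher on the virgin array than on each of the other 3 arrays. The C1q chains were 3 of these 16. They set the range themselves and the genes were picked by their virgin signal. The shares are therefore a description and no support for a C1q difference. The others were *Ptprc*, the pan-leukocyte marker CD45, the macrophage scavenger receptor *Cd163*, the mannose receptor *Mrc1*, the chemokines *Ccl6* and *Ccl9*, *Laptm5*, a lysosomal protein of blood cells, the acute-phase genes *Saa3* and *Hp*, and *Adamtsl2*, *Scg3*, *Lrrn4cl*, *Colgalt2* and *Thbs3*, all named after their values were seen. *Saa3* had the largest gap, 6.65-fold to the next array, and *C1qa* came second at 3.66-fold.

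Alternative pathway genes and the C1 inhibitor gene did not differ by 2-fold with pregnancy by their representative probe sets. *Cfb*, which encodes factor B, had signals of 313, 417, 188 and 350 on the PP2, abdominal, dorsal and virgin arrays and was called present on all. The abdominal array exceeded the virgin array by 1.19-fold. *Serping1* had signals of 7816, 7501, 5730 and 8642 in the same order, and the abdominal array was 1.15-fold lower than the virgin array. Like that of *C1qb*, its signal was highest on the virgin and lowest on the dorsal array, over a narrower range. The log2 ratios of these genes were 0.25 for *Cfb* and -0.20 for *Serping1*, with a median of 0.02, within the central 90% of all genes, which spanned -0.84 to 0.84. *Cfp*, which encodes properdin, a product of myeloid cells, had signals of 284, 344, 419 and 369 on the PP2, abdominal, dorsal and virgin arrays, with a present call on each. The abdominal array was 1.07-fold lower than the virgin array, and the dorsal array stood highest, unlike for any C1q probe set. A second probe set of *Cfp* gave 21.9, 53.7, 11.6 and 142 and was called present on none, so the 2 probe sets of this gene differ in their order of the arrays.

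**Figure D2:**
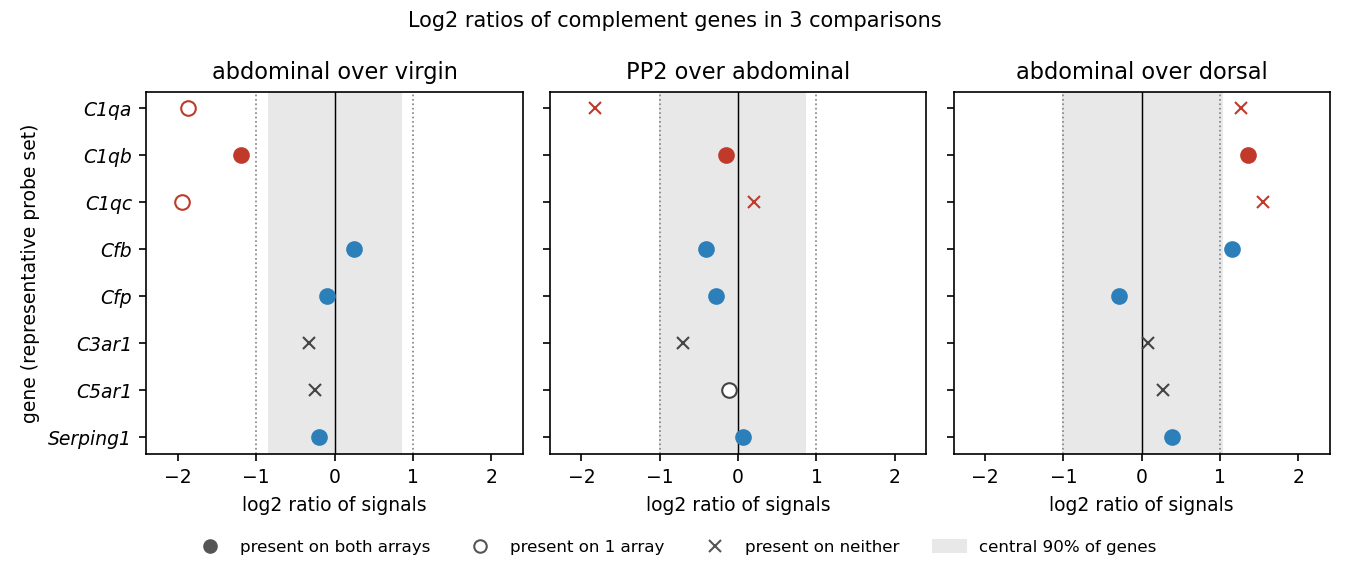
Log2 ratio of signals of the 8 members by their representative probe sets, for the abdominal over the virgin array (left), the PP2 over the abdominal array (middle) and the abdominal over the dorsal array (right); the grey band holds the central 90% of genes and dotted lines mark 2-fold. On the left the C1q chains (red) lie at -1.87, -1.20 and -1.95, the values of *C1qa* and *C1qc* being bounds, outside the band, and *Cfb*, *Cfp* and *Serping1* (blue) inside it.

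The anaphylatoxin receptors were near the limit of detection. *C3ar1*, the receptor of C3a, was called present in 1 of the 12 calls of its 3 probe sets, on the virgin array by the third. That probe set had signals of 9.69 in PP2, 25.6 in abdominal and 62.5 in virgin skin, and was at least 2.44-fold lower on the abdominal than on the virgin array. The others stayed between 4.22 and 54.0. *C5ar1*, the receptor of C5a on neutrophils and macrophages, was called present once, on the PP2 array at a signal of 17.6, while the same probe set had 19.1, 15.8 and 22.7 without a present call on the abdominal, dorsal and virgin arrays. No difference of the receptor genes between arrays was detectable at these signals, apart from that probe set of *C3ar1*.

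With PP2, no member with a present call differed by 2-fold. The PP2 array also had the highest *Gapdh* ratio, 5.84 against 1.41 on the abdominal array. Among 5 members called present on the PP2 or the abdominal array, 0 were higher and 0 lower, against 3.74% and 4.89% of all genes. *C1qb* was 1.12-fold lower on the PP2 array by the representative probe set and 1.05-fold lower by the second. *Cfb* was 1.33-fold lower, *Cfp* 1.21-fold lower and *Serping1* 1.04-fold higher. For *C1qa* and *C1qc* no fold is given, since neither array had a present call. Where a marginal call is taken as detection, *C1qa* was lower on the PP2 array, with a log2 ratio bounded at -1.83 or below, and was the only member to pass. A common direction of the C1q chains could not be read here.

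By site, 2 members were higher on the abdominal than on the dorsal array and 0 lower, among 4 called present on at least 1 of them, against 5.25% and 4.96% of all genes. *C1qb* exceeded its dorsal signal by 2.56-fold, and by its second probe set at least 2.45-fold. Each of these carries the x suffix. The probe set without the suffix had signals of 140 and 4.05 on the abdominal and dorsal arrays. Neither had a present call, so it gives no fold and the *C1qb* difference by site rests on the x probe sets. *Cfb* was 2.22-fold higher, with a log2 ratio of 1.15, just outside the central 90% of all genes, which ended at 1.02. *Serping1* was 1.31-fold higher and *Cfp* 1.22-fold lower. *C1qa* and *C1qc* were not called present on either array, with signals of 171 and 85.3 in abdominal skin, against 70.8 and 29.0 in dorsal skin. Among the 4 members called present on all arrays, the dorsal array was thus the lowest for *C1qb*, *Cfb* and *Serping1* and the highest for *Cfp*. Across all genes called present on at least 1 array, 30.8% were lowest on the dorsal array and 21.6% highest on the virgin array, and 8.01% were both. By signal alone 4 members were both, *C1qb* and *Serping1* with present calls throughout, and *C1qc* and *C5ar1*. The only present call was on the virgin array for *C1qc* and on the PP2 array for *C5ar1*, so their order rests on signals that were not detected.

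Some macrophage markers moved with the C1q chains. Of 13 genes listed, 12 had a probe set and 11 were called present on at least 1 array by the representative probe set. The gene left out of these counts, *Fcgr1*, had present calls by its other probe set on all but the dorsal array. That probe set gave 22.0, 47.7, 10.2 and 88.8 on the PP2, abdominal, dorsal and virgin arrays. The summed signal of the 12 was 7353, 6408, 6306 and 8067 on the PP2, abdominal, dorsal and virgin arrays. The bright *Lyz2* and *Mertk* weigh most in this sum and are named after their values were seen. *Lyz2* had 2278, 1443, 2301 and 2051 in that order and *Mertk* 1795, 1779, 2543 and 1328. The dorsal array was highest for both, unlike for any C1q chain. On the abdominal over the virgin array, 3 of the 11 had a ratio above 1, *Mertk* among them, and 8 below 1. The virgin array was highest for 6 of the 11 and the dorsal array lowest for 8, against 21.6% and 30.8% of all genes. Against the virgin array, 4 of 11 were lower on the abdominal array and 0 higher, beside 3.55% and 3.41% of all genes. The median log2 ratio was -0.54. Against the dorsal array 6 of 10 were higher and 0 lower, beside 5.25% and 4.96% of all genes, with a median of 1.16. With PP2, 1 of 10 was higher than on the abdominal array and 0 lower, beside 3.74% and 4.89% of all genes, with a median of -0.09. *Mrc1*, the mannose receptor, had signals of 197, 235, 90.1 and 496 on the PP2, abdominal, dorsal and virgin arrays. *Adgre1*, a surface receptor of macrophages, had 154, 219, 79.2 and 431, again with the virgin array highest and the dorsal array lowest. *Cd68* had 213, 195, 109 and 235, a narrower range in which the virgin array stood highest. *Csf1r*, the receptor that sustains macrophages, had 645, 942, 331 and 903, so that the abdominal and virgin arrays were alike by its representative probe set. The macrophage markers thus did not all follow the C1q chains in the comparison with virgin mice, and which part of the C1q difference went with macrophage RNA was not tested. Fibroblast markers had a median log2 ratio of -0.20 on the abdominal over the virgin array, with 1 of 8 higher and 0 lower. Over the dorsal array it was 0.74, with 4 of 8 higher and 0 lower. For fibroblast markers too the virgin array was often highest, for 5 of 8, and the dorsal array lowest, for 6 of 8.

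**Figure D3:**
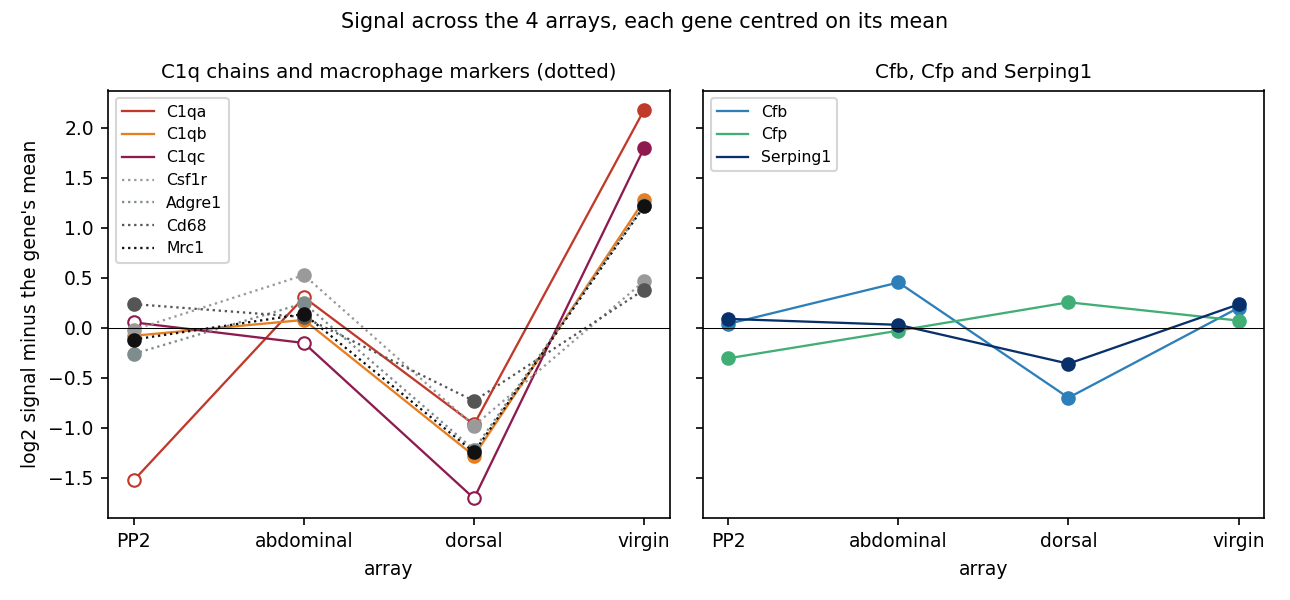
Log2 signal minus the gene's mean on the PP2, abdominal, dorsal and virgin arrays for the C1q chains with 4 macrophage markers (left, dotted) and for *Cfb*, *Cfp* and *Serping1* (right); open circles mark arrays without a present call, and lines join the points of a gene. The C1q chains reach 2.18, 1.28 and 1.80 above their mean on the virgin array, means that for *C1qa* and *C1qc* include 3 signals without a present call, whereas *Cfb*, *Cfp* and *Serping1* stay between -0.70 and 0.45 on all arrays.

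Over the 4 arrays the patterns closest to that of *C1qb* included those of macrophage genes. Likeness was measured as the distance between log2 signals of the 4 arrays after each gene's mean was subtracted, among 11086 genes called present on all arrays, and 4 points make it a description only. For *C1qb* the nearest genes were *Mrc1* at a distance of 0.10, *Pf4*, a chemokine of platelets that tissue macrophages also express, at 0.14, and *Serpinb6e* at 0.14. *C1qc* was nearest to *Ccl8*, a monocyte chemokine, at 0.34, then to *Ccl9* at 0.69 and to *C1qb* at 0.73. *Ccl8* had signals of 728, 782, 201 and 2239 on the PP2, abdominal, dorsal and virgin arrays. *C1qa* was nearest to *Ms4a6d*, a membrane protein of myeloid cells, at 1.11, to *1810014B01Rik* at 1.24 and to *Dcaf12l1* at 1.31. The profiles of *C1qa* and *C1qc* each hold 3 signals without a present call, so their nearest genes rest on values that were not detected. The other members were then added to those called present throughout, and the 11089 genes were put in the order of their distance from *C1qb*. *C1qc* came at place 29, *Cfb* at 373, *Serping1* at 648, *C1qa* at 3790 and *Cfp* at 7295. By this measure *Cfb* and *Serping1* were nearer to *C1qb* than *C1qa* was, whose place rests on signals that were not detected. *Serping1* was nearest to *Cox6c*, *Gng10* and *Zik1*, each at 0.03.

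The rest of the complement system was followed through 49 further genes, of which 38 had a probe set and 21 were called present on at least 1 array. On the abdominal over the virgin array 1 of 20 was higher and 0 lower, against 3.41% and 3.55% of all genes, with a median log2 ratio of -0.26. On the PP2 over the abdominal array 1 of 19 was higher and 1 lower, against 3.74% and 4.89%, with a median of 0.15 beside 0.00 over all genes. On the abdominal over the dorsal array 2 of 21 were higher and 3 lower, against 5.25% and 4.96%, with a median of 0.11 beside 0.04 over all genes. *C1ra* and *C1s1*, which encode the proteases that C1q activates, passed 2-fold in no comparison and are named after their values were seen. *C1ra* had signals of 725, 882, 629 and 1222 on the PP2, abdominal, dorsal and virgin arrays, with a log2 ratio of -0.47 for the abdominal over the virgin array. *C1s1* had 3125, 2445, 2037 and 3178, with a ratio of -0.38. The virgin array was highest for both, by less than for the C1q chains. *C2*, the next protease of the classical pathway, was 1.96-fold lower on the abdominal than on the virgin array, with 1.33-fold and 1.41-fold by its other probe sets, and *C9*, of the membrane attack complex, 1.73-fold lower on the PP2 than on the abdominal array.

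Among membrane regulators, *Cd55*, which encodes decay-accelerating factor, differed in all 3 comparisons by its representative probe set. Its signals were 437, 1024, 468 and 328 on the PP2, abdominal, dorsal and virgin arrays, with a present call on each, so that the abdominal array stood apart. It was 3.12-fold higher on the abdominal than on the virgin array, 2.34-fold lower with PP2 than with DMSO in abdominal skin, and 2.19-fold higher in abdominal than in dorsal skin. A second probe set agreed in direction, with log2 ratios of 1.20, -0.71 and 0.49, and the third gave 0.23, -0.19 and 0.78. By the mean log2 ratio of its detected probe sets *Cd55* passed 2-fold over the virgin array alone. Beside the lower *Cd55* with PP2, all 5 keratinocyte, all 4 endothelial and both detected adipocyte markers also had ratios below 1. Their median log2 ratios were -0.76, -0.65 and -1.39. Ratios below 1 were also found for 5 of 8 fibroblast, 6 of 10 macrophage and 1 of 3 mast cell markers, and for 6531 of 12955 genes. On the abdominal over the virgin array, 5 of 5 keratinocyte, 3 of 4 endothelial and 2 of 2 adipocyte markers had ratios above 1. There 2 of 8 fibroblast and 3 of 11 macrophage markers did, and 6731 of 12744 genes. The part of these cell types in the *Cd55* results was not tested. *Cd59a*, which blocks the membrane attack complex, had signals of 5223, 3702, 7709 and 1994 in the order above. It was 2.08-fold lower on the abdominal than on the dorsal array, but 1.33-fold lower by its other probe set. Against the virgin array it was 1.86-fold higher on the abdominal array, and 2.09-fold higher by its other probe set. *Csmd1*, with signals of 186 and 75.2, was 2.47-fold higher on the PP2 than on the abdominal array, and at least 1.42-fold by the other detected probe set. It no longer passed with all detected probe sets, with 50 added to each signal or at a fold of 3. Of the lectin pathway, *Masp1*, a protease, was 2.13-fold lower on the abdominal than on the dorsal array by its representative probe set. Its other probe sets gave log2 ratios of -0.83, -0.43, -1.38 or below and 0.13 or above. The mean log2 ratio over its detected probe sets did not pass 2-fold. *Colec11*, a collectin, was 2.57-fold lower in the same comparison and at least 1.91-fold by its other probe set. The scavenger collectin *Colec12* was 1.56-fold higher on the PP2 than on the abdominal array. *Itgb2*, the β chain of leukocyte integrins, among them complement receptor 3, was at least 4.91-fold higher on the abdominal than on the dorsal array, with signals of 75.1, 67.9, 13.8 and 126, and shared with *C1qb* the highest signal on the virgin and the lowest on the dorsal array.

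**Figure D4:**
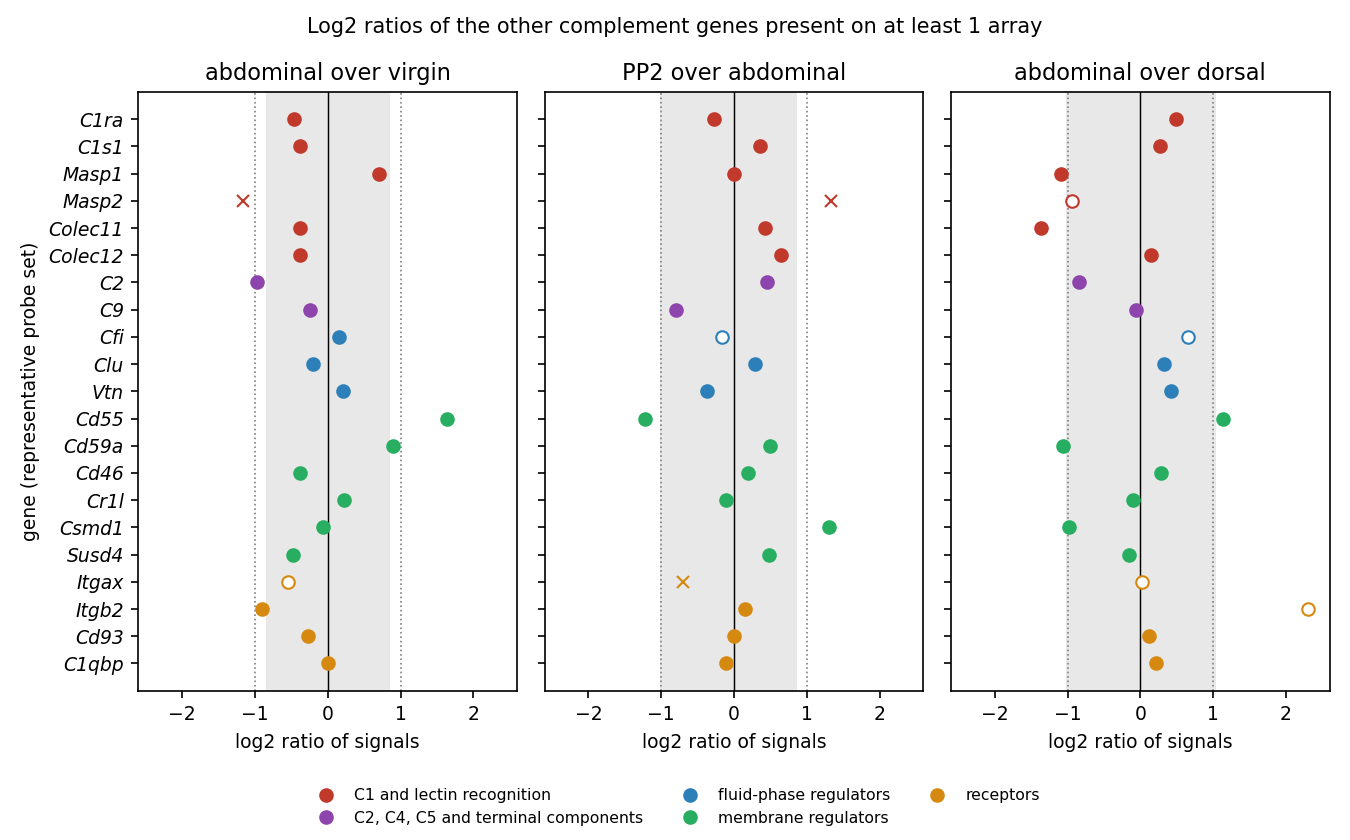
Log2 ratio of signals of the 21 other complement genes called present on at least 1 array, coloured by role, in the 3 comparisons; filled circles mark a present call on both arrays, open circles on 1 and crosses on neither, the grey band holds the central 90% of genes and dotted lines mark 2-fold. *Cd55* lies at 1.64, -1.23 and 1.13, and *Itgb2* at 2.30, a bound, on the right.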

How the data were processed

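Each condition had 1 Affymetrix mouse array, hybridised with dermal RNA that was labelled by 3′ in vitro transcription. The authors deposited MAS5 signal intensity values on a linear scale, made with Affymetrix Expression Console version 1 per the submitters' processing notes and scaled to a common trimmed mean, and detection calls. The deposited whole-series table differed from the single tables for 0 signals, and 0 value columns lacked a sample. No genome build is given in the sources used here. Skin was freed of its subcutaneous fat and digested with enzymes to obtain the dermal cells.

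Of the probe sets, 34945 had a single gene in the platform's annotation, 932 had several and were not named, 9160 had none and 64 were controls. Ratios of signals as deposited were computed with Python 3.11.15, pandas 2.3.3 and numpy 2.4.6, checked on simulated data. The unit fitted the planned design, but *C3* could not be included, so the group planned as *C3*, *Cfb* and *Serping1* is *Cfb* and *Serping1*. With 1 array per condition no test was run and no precision can be given. Members and lists were chosen with earlier results of these data known. Named genes were all members, other complement genes past 2-fold or among the 4 largest differences of a comparison, up to 4 genes of each marker list, those listed first, and the 3 genes nearest in pattern to *C1qa*, *C1qb*, *C1qc* and *Serping1*. Alternatives covered scaling, probe sets, detection, low signals and the fold.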

Additional observations from a re-analysis of the deposited data

How the results depend on the processing

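No paired analysis was possible because each condition had 1 array, and no array could be left out. In 107 of 107 repeats for single members under other settings the log2 ratio moved by less than 1.5-fold, and the log2 ratios of the 3 C1q chains on the abdominal over the virgin array stayed below 0 under every setting run. At a fold of 3, 2 members were lower there, against 3, since *C1qb* was 2.29-fold lower. With all detected probe sets 4 were, as the third probe set of *C3ar1* then enters. Directions turned for *C5ar1* on the PP2 over the abdominal array with quantile normalization (log2 ratio 0.16 against -0.12), and with no detection filter for the medians of other complement genes on the PP2 over the abdominal array (-0.09 against 0.15) and on the abdominal over the dorsal array (-0.01 against 0.11). With arrays set to a common median, the median log2 ratio of all genes was 0.07, 0.11 and 0.12 in the abdominal over virgin, PP2 over abdominal and abdominal over dorsal comparisons, against 0.02, 0.00 and 0.04 as deposited. For counts and medians, 146 of 173 repeats gave like values. The other 27 were as follows, in counts of genes. Of members on the PP2 over the abdominal array, 1 was lower with marginal calls as detected and 1 with no detection filter, against 0, and the median of the C1q chains was -0.99 with marginal calls, against -0.16, as *C1qa* then enters. Of members on the abdominal over the dorsal array, 4 were higher with no detection filter, 1 with 50 added to each signal and 0 at a fold of 3, against 2. Other complement genes on the abdominal over the virgin array were higher for 3 with no detection filter and 3 at a fold of 1.5, against 1, and lower for 1 with quantile normalization, 1 with all detected probe sets, 6 with no detection filter and 2 at a fold of 1.5, against 0. On the PP2 over the abdominal array, 0 were higher with all detected probe sets, 0 with 50 added, 0 at a fold of 3, 2 at a fold of 1.5 and 6 with no detection filter, against 1, and 0 were lower with all detected probe sets, 0 at a fold of 3, 2 at a fold of 1.5 and 7 with no detection filter, against 1. On the abdominal over the dorsal array, 1 was higher with all detected probe sets, 1 with 50 added and 1 at a fold of 3, against 2, and 8 were lower with no detection filter, 6 at a fold of 1.5 and 0 at a fold of 3, against 3. Signals near the limit of detection bound what can be said of *C1qa*, *C1qc*, *C3ar1* and *C5ar1* on the arrays without a present call.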
